A study of Homo sapiens with 12 samples.

Results

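The serum response factor (SRF) and YAP1/TEAD pathways were examined through 10 genes, chosen by name as regulators or targets of these pathways and read from the deposited expression table, which lists 22784 gene symbols. SRF and its actin-regulated coactivators MRTFA and MRTFB make up the SRF branch, YAP1, WWTR1 (TAZ) and TEAD1 are the regulators of the YAP1/TEAD branch, and CCN1, CCN2, ANKRD1 and AMOTL2 are targets. All 10 genes were among the 14839 that reached a normalized count of 10 in at least 3 libraries and were tested. The libraries came from SK-UT-1, an established human cell line from uterine leiomyosarcoma, a malignancy of smooth muscle. Cells received JQ1 or I-BET 762, inhibitors that displace BET bromodomain proteins from acetylated chromatin, each at 5 µM for 48 h, or the DMSO vehicle (labelled VEH), and no other treatment or genetic change was given for any group. The table gave 3 DMSO, 4 JQ1 and 3 I-BET 762 libraries (10 of 12 labelled), and the remaining DMSO and I-BET 762 libraries were not analysed here. A single cell line was used, and no label states that libraries came from separate cultures, so p-values measure the spread between these libraries.

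SRF binds the CArG box and is driven by 2 classes of coactivator. The myocardin-related factors MRTFA and MRTFB enter the nucleus when actin polymerizes and bring SRF to cytoskeletal and contractile genes, while ternary complex factors of the ELK family bring it to immediate early genes. In the Hippo pathway, STK3/STK4 and LATS1/LATS2 kinases phosphorylate YAP1 and WWTR1 and keep them out of the nucleus, and when this brake is off both join TEAD proteins on MCAT elements of genes such as CCN1 and CCN2. Smooth muscle depends on SRF with myocardin-family cofactors for its contractile genes.

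The upstream 250 bases of 3 genes are shown because they hold the densest matches to the DNA elements that name these pathways. They were read from RefSeq on GRCh38.p14, 5′ to 3′ on the strand of the gene, ending at the base before the transcript start, and capitals mark motif matches. The SRF window (chr6:43171019-43171268, + strand) has 2 CArG boxes, starting 30 and 10 bases before the start. The CCN2 window (chr6:131951373-131951622, − strand) has 3 MCAT elements. The ANKRD1 window (chr10:90921088-90921337, − strand) has 2 MCAT elements. Between them lies 1 match, TGATTCA, to the AP-1 search pattern, which allowed any centre base.
SRF: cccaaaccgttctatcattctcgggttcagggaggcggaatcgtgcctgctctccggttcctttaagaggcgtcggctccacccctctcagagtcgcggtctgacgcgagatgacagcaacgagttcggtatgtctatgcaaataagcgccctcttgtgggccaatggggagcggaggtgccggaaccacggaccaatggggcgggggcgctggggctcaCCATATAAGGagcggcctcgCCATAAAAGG
CCN2: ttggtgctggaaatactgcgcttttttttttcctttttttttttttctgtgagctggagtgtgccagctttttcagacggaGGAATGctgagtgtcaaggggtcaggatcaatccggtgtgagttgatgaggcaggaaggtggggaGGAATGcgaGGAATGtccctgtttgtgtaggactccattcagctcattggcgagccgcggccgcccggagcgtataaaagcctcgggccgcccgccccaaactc
ANKRD1: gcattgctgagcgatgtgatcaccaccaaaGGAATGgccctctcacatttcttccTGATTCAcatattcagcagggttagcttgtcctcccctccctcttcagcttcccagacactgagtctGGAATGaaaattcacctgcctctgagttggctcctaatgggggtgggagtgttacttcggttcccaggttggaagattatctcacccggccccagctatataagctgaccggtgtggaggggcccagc
MCAT was searched as CATTCC on either strand, AP-1 as TGANTCA, which reads the same way on either strand, and CArG by its consensus. RefSeq windows running from 250 bases before to 50 after the start were matched for 8 of the 10 genes, at 16 transcript starts, and the promoters of CCN1 and TEAD1 were not matched. MCAT occurred at 5 of these starts, AP-1 at 2 and CArG at 1. Among 35116 such windows of human genes, 14.0% held MCAT, 7.71% AP-1 and 1.29% CArG. No 2 matches in these windows overlapped. A match describes the letters only, and no binding was measured.

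**Figure D1:**
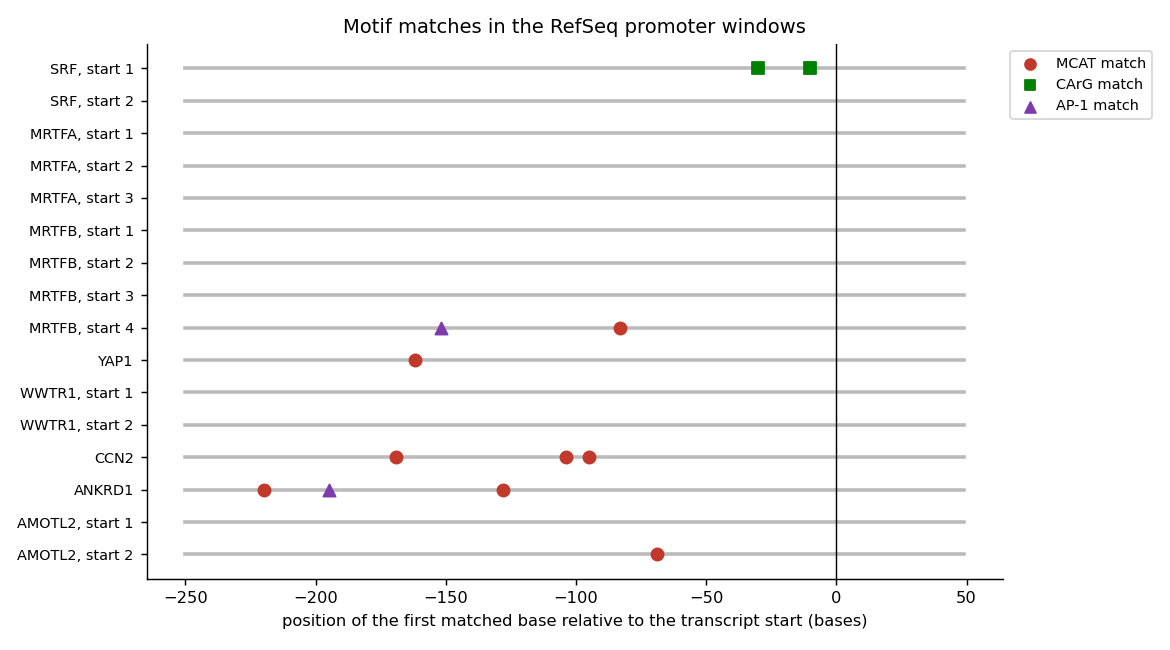
Positions of MCAT, CArG and AP-1 matches in the RefSeq windows of 8 genes, in bases from the transcript start (0), 1 grey line per start. The 3 MCAT matches of CCN2 begin 169, 104 and 95 bases before its start, and both CArG matches lie in the last 30 bases before a start of SRF.

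Values are normalized read counts, obtained by undoing the deposited log2(normalized count + 1). Fold changes, standard errors (SE), 95% confidence intervals and p-values come from 1 limma fit to the deposited log2 values of all 10 libraries, with Benjamini-Hochberg adjustment over the 14839 genes. A gene is said to have risen or fallen where the adjusted p was under 0.05, and to be past both thresholds where the change was also over 1.5-fold, the size the study set for transcription factors. Reads assigned to genes ran from 35564586 to 39658989 per library, and a count of 3 reads corresponded to 2.73 to 3.30 normalized counts. Summed normalized counts were higher after JQ1 (39218686 to 41845407) and I-BET 762 (37196649 to 37829697) than with DMSO (34444558 to 35683740), so values on an equal-totals scale are given beside results whose call differed there. That scale moved the median log2 fold change of all genes to −0.18 with JQ1 and −0.10 with I-BET 762, and values on it include this shift. Markers of smooth muscle summed to 20500 to 21136 normalized counts with DMSO, 10661 to 11269 with JQ1 and 11822 to 12374 with I-BET 762 (7 of 8 markers, with MYH11 not analysed here). The single markers were not alike. SMTN was at 2132 to 2573 with DMSO, 2343 to 2885 with JQ1 and 2568 to 2740 with I-BET 762. DES was at 187 to 188, 2.18 to 14.2 and 18.7 to 21.6 in the same order. Endothelial markers summed to at most 7.40 and leukocyte markers to at most 3.04. The 6 epithelial markers summed to 1231 to 1290 with DMSO, 517 to 612 with JQ1 and 507 to 547 with I-BET 762. With DMSO they ran from CDH1 (3.87 to 13.7), CLDN4 (12.7 to 23.2) and EPCAM (37.8 to 42.8) up to KRT18 (278 to 295) and KRT19 (740 to 742). The part of cell composition in the results below was not tested, and in bulk RNA fewer cells of a kind and less RNA per cell cannot be told apart.

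With JQ1, 7 of the 10 genes changed: CCN2, CCN1, WWTR1, MRTFA and AMOTL2 rose, while MRTFB and YAP1 fell. Against this stood shares of 36.0% of all tested genes that rose and 35.6% that fell with JQ1, so changes were common throughout. Past both thresholds were CCN2 and CCN1 among the genes that rose (13.3% of all tested genes) and MRTFB among those that fell (22.8%). With I-BET 762, 6 of the 10 changed, namely the same genes without WWTR1, where 29.9% of all tested genes rose and 31.3% fell. Of these, CCN2 and CCN1 rose past both thresholds (8.96% of all tested genes did) and none of the 10 fell past them (17.9% did). The median log2 fold change of the 10 genes was 0.37 with JQ1 and 0.23 with I-BET 762, beside 0.01 and 0.00 for all tested genes. Both comparisons share the 3 DMSO libraries. The share of all tested genes whose groups do not overlap was not counted, so such separation, given below, only describes the single gene.

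**Figure D2:**
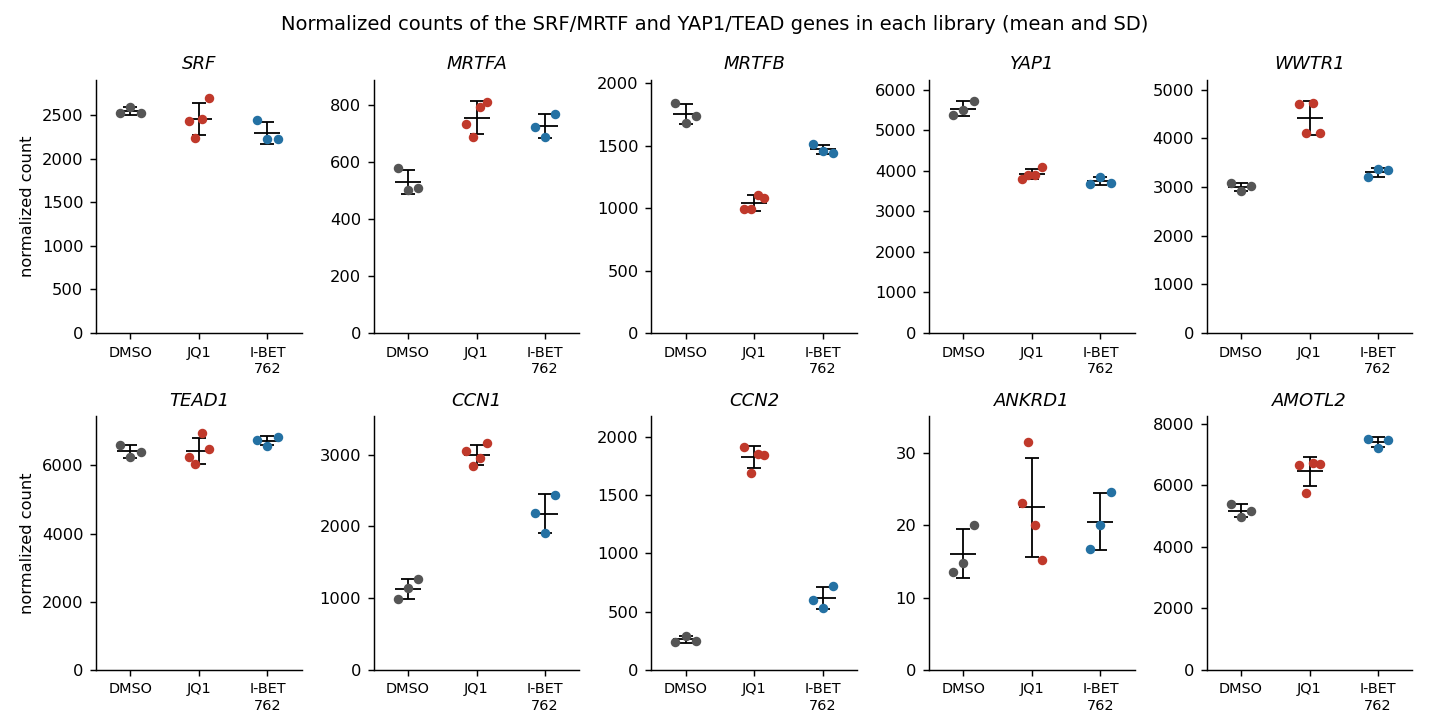
Normalized counts of the 10 genes in each DMSO, JQ1 and I-BET 762 library (points), with group mean and SD (bars), each axis starting at 0. JQ1 libraries lie apart from all DMSO libraries for CCN1, CCN2, MRTFA, MRTFB, YAP1, WWTR1 and AMOTL2, and the groups overlap for ANKRD1. How many of all tested genes lie apart in this way was not counted.

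SRF (ENSG00000112658.8, chromosome 6, 43171269 to 43181506 on hg38) encodes the DNA-binding factor itself. Its normalized counts were 2519, 2596 and 2524 with DMSO, 2427, 2240, 2453 and 2699 with JQ1, and 2443, 2221 and 2226 with I-BET 762. The JQ1 libraries spanned the DMSO values, whereas the I-BET 762 libraries lay just below them. The log2 fold change was −0.06 with JQ1 (SE 0.06, adjusted p = 0.417) and −0.15 with I-BET 762 (95% confidence interval −0.29 to −0.01, adjusted p = 0.0536). The JQ1 interval, −0.18 to 0.07, lay inside 1.5-fold, and the I-BET 762 value passed when the JQ1 libraries were left out of the fit (adjusted p = 0.00687). On the equal-totals scale SRF fell with each inhibitor, at −0.24 and −0.25 (adjusted p = 0.00586 and 0.00940).

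The coactivators moved in opposite directions. MRTFA (ENSG00000196588.21, chromosome 22, 40410281 to 40636719) gave normalized counts of 579, 502 and 508 with DMSO, 734, 688, 794 and 809 with JQ1, and 723, 687 and 769 with I-BET 762. All 7 treated libraries were above the highest DMSO library, and the inhibitors overlapped. MRTFA rose by a log2 fold change of 0.51 with JQ1 (SE 0.08, adjusted p = 1.95e-05) and 0.46 with I-BET 762 (SE 0.08, adjusted p = 0.000183), both under 1.5-fold. A ribosomal protein pseudogene, RPL4P6, shares 5.95% of the exonic bases of MRTFA on the same strand, and its mean in DMSO was 14.8. The level of RPL4P6 with the inhibitors was not examined here.

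MRTFB (ENSG00000186260.17, chromosome 16, 14071319 to 14266773) gave 1843, 1681 and 1737 normalized counts with DMSO, 989, 989, 1108 and 1080 with JQ1, and 1513, 1459 and 1442 with I-BET 762. The 3 groups did not overlap: JQ1 was lowest, I-BET 762 intermediate and DMSO highest. MRTFB fell by 40.6% with JQ1 (log2 fold change −0.75, SE 0.06, adjusted p = 1.02e-08). It fell by 16.0% with I-BET 762 (log2 fold change −0.25, SE 0.06, adjusted p = 0.00247).

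The balance between the coactivators was read as a ratio of counts per kb of exon within each library, given as a description. MRTFB to MRTFA was 1.47 ± 0.0541 (SD, n = 3) with DMSO, 0.609 ± 0.0210 (n = 4) with JQ1 and 0.897 ± 0.0597 (n = 3) with I-BET 762. Per kb, MRTFB was thus above MRTFA in each DMSO library and below it in each treated library. In normalized counts, without division by length, MRTFB was above MRTFA in every library. The length of a gene is that of all its annotated exons together, 16.6 kb for MRTFB and 7.33 kb for MRTFA. Which transcripts were expressed was not determined, and this limit holds for all values per kb. The sum of MRTFA and MRTFB was closer between groups, at 178 ± 10.7, 166 ± 11.1 and 188 ± 5.42 normalized counts per kb in the same order.

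YAP1 (ENSG00000137693.14, chromosome 11, 102110447 to 102233424), the coactivator restrained by Hippo kinases, had the highest level per kb of the 10 genes in DMSO. Its normalized counts were 5381, 5502 and 5729 with DMSO, 3807, 3899, 3899 and 4107 with JQ1, and 3673, 3860 and 3708 with I-BET 762. Every treated library was below every DMSO library, and the inhibitors overlapped each other. YAP1 fell by 29.1% with JQ1 (log2 fold change −0.50, SE 0.05, adjusted p = 6.55e-08) and by 32.3% with I-BET 762 (−0.56, SE 0.05, adjusted p = 6.75e-08), short of 1.5-fold in both. On the equal-totals scale both values passed 1.5-fold, at −0.68 and −0.66, and relative to the shift of all genes they were −0.50 and −0.56. An unnamed gene on the opposite strand (ENSG00000254422) overlaps 9.95% of the exonic bases of YAP1, and the strand setting used in counting was not given in the sources used here.

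WWTR1 (ENSG00000018408.15, chromosome 3, 149517235 to 149736714) encodes TAZ, the paralogue of YAP1. Its normalized counts were 3077, 2916 and 3021 with DMSO, 4693, 4113, 4732 and 4104 with JQ1, and 3198, 3360 and 3353 with I-BET 762. JQ1 libraries formed a separate upper group, and I-BET 762 libraries lay slightly above the DMSO ones without overlap. WWTR1 rose by 46.5% with JQ1 (log2 fold change 0.55, SE 0.06, adjusted p = 3.22e-07). With I-BET 762 the value was 0.14 (95% confidence interval 0.01 to 0.27, adjusted p = 0.0645), which did not pass the threshold, although it did when the JQ1 libraries were left out of the fit (adjusted p = 0.00626). The antisense gene WWTR1-AS1 overlaps 9.05% of the exonic bases, with a mean of 27.0 normalized counts in DMSO and a level with the inhibitors that was not examined here.

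The balance of YAP1 and WWTR1 is likewise given as a description. The ratio of YAP1 to WWTR1 per kb was 2.44 ± 0.109 (SD, n = 3) with DMSO, 1.19 ± 0.123 (n = 4) with JQ1 and 1.5 ± 0.0327 (n = 3) with I-BET 762. No ratio of a treated library reached the lowest DMSO ratio of 2.31. The sum of both coactivators was 1237 ± 28.0 normalized counts per kb with DMSO, 1150 ± 31.9 with JQ1 and 989 ± 24.5 with I-BET 762.

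TEAD1 (ENSG00000187079.20, chromosome 11, 12674421 to 12944737), the DNA-binding partner, gave 6611, 6233 and 6400 normalized counts with DMSO, 6260, 6041, 6945 and 6475 with JQ1, and 6756, 6573 and 6840 with I-BET 762. The groups overlapped. The log2 fold change was 0.00 with JQ1 (95% confidence interval −0.10 to 0.11, adjusted p = 0.976) and 0.07 with I-BET 762 (−0.05 to 0.18, adjusted p = 0.286), and on the equal-totals scale the values were −0.18 (adjusted p = 0.0106) and −0.03.

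Its paralogues were not alike. TEAD2 fell from 2489 ± 47.7 normalized counts with DMSO (mean ± SD) to 1360 ± 94.0 with JQ1 and 1524 ± 65.0 with I-BET 762 (log2 fold changes −0.87 and −0.71, adjusted p = 1.72e-09 and 9.73e-08). TEAD3 fell from 570 ± 18.1 to 259 ± 44.0 and 341 ± 2.26 (−1.15 and −0.74, adjusted p = 6.44e-08 and 3.22e-05). TEAD4, at 1150 ± 56.2, 1175 ± 69.0 and 1228 ± 51.5, was named after its values were seen and gave log2 fold changes of 0.03 and 0.10 (adjusted p = 0.673 and 0.219), which were −0.15 and 0.00 on the equal-totals scale. TEAD1 accordingly made up 28.2% ± 0.199 of the counts per kb of the 4 TEAD genes with DMSO, 36.3% ± 1.99 with JQ1 and 35.1% ± 0.890 with I-BET 762. The 4 genes together went from 2127 ± 62.9 to 1659 ± 80.0 and 1792 ± 32.1 normalized counts per kb.

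**Figure D3:**
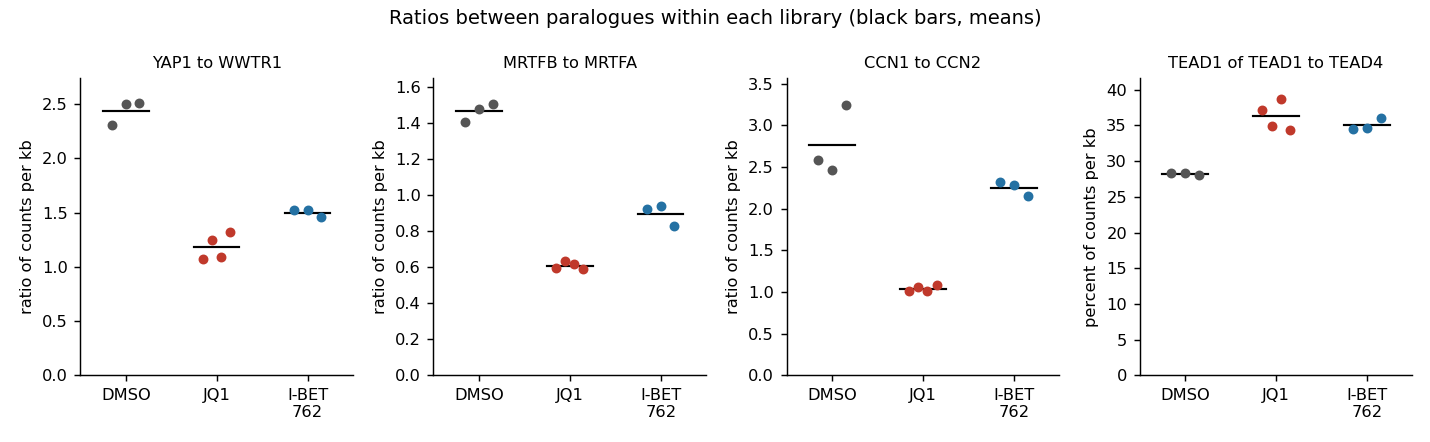
Ratios of normalized counts per kb of exon within each library (points) with group means (bars): YAP1 to WWTR1, MRTFB to MRTFA, CCN1 to CCN2, and TEAD1 as a percent of TEAD1 to TEAD4, all axes starting at 0. The mean of YAP1 to WWTR1 goes from 2.44 with DMSO to 1.19 with JQ1 and 1.5 with I-BET 762.

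Of the targets, CCN2 changed most. CCN2 (connective tissue growth factor, ENSG00000118523.6, chromosome 6, 131948176 to 131951372) encodes a secreted matricellular protein and is widely used as a readout of YAP1/TEAD activity. Normalized counts were 240, 293 and 246 with DMSO, 1912, 1693, 1853 and 1843 with JQ1, and 596, 527 and 716 with I-BET 762. The 3 groups were fully separate, with I-BET 762 between DMSO and JQ1. CCN2 rose 7.03-fold with JQ1 (95% confidence interval 6.10 to 8.09, log2 fold change 2.81, adjusted p = 6.61e-13). With I-BET 762 it rose 2.35-fold (2.02 to 2.73, log2 fold change 1.23, adjusted p = 5.02e-08). The CCN2 window shown above holds 3 MCAT elements, and their part in the rises was not tested. MCAT also occurred in windows of AMOTL2, which rose, of MRTFB and YAP1, which fell, and of ANKRD1, which did not pass the threshold. LINC01013 overlaps 11.9% of the exonic bases of CCN2 on the opposite strand and was listed at 0 in DMSO. Its level with the inhibitors was not examined here.

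CCN1 (CYR61, ENSG00000142871.18, chromosome 1, 85580761 to 85584589) encodes a related matricellular protein. Its normalized counts were 982, 1138 and 1265 with DMSO, 3049, 2835, 2946 and 3157 with JQ1, and 2191, 1902 and 2438 with I-BET 762. The groups were again separate and in the same order. CCN1 rose 2.67-fold with JQ1 (95% confidence interval 2.35 to 3.02, log2 fold change 1.42, adjusted p = 5.05e-10) and 1.93-fold with I-BET 762 (1.69 to 2.21, log2 fold change 0.95, adjusted p = 2.51e-07). The ratio of CCN1 to CCN2 per kb was 2.76 (2.46 to 3.25 over libraries) with DMSO, 1.04 (1.01 to 1.08) with JQ1 and 2.25 (2.15 to 2.32) with I-BET 762. Per kb, CCN1 and CCN2 were hence nearly level in JQ1 libraries only among the 3 groups.

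AMOTL2 (ENSG00000114019.15, chromosome 3, 134355347 to 134375479) encodes an angiomotin-family protein that binds YAP1 and is itself induced by YAP1/TEAD. It gave 5388, 4988 and 5163 normalized counts with DMSO, 6665, 5761, 6743 and 6685 with JQ1, and 7527, 7231 and 7479 with I-BET 762. The order differed from CCN1 and CCN2, with I-BET 762 highest, and no groups overlapped. AMOTL2 rose by 24.6% with JQ1 (log2 fold change 0.32, SE 0.06, adjusted p = 9.33e-05) and by 43.2% with I-BET 762 (0.52, SE 0.06, adjusted p = 1.82e-06). The JQ1 value was 0.13 on the equal-totals scale and no longer passed (adjusted p = 0.0987).

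ANKRD1 (ENSG00000148677.7, chromosome 10, 90912096 to 90921087), a cardiac ankyrin repeat protein and a further standard YAP1 target, was the least abundant of the 10. Normalized counts were 13.6, 14.8 and 20.0 with DMSO, 23.1, 31.6, 20.0 and 15.2 with JQ1, and 16.7, 20.1 and 24.6 with I-BET 762, from 14 to 29 reads per library. The groups overlapped. The log2 fold change was 0.43 with JQ1 (95% confidence interval −0.18 to 1.03, adjusted p = 0.193) and 0.33 with I-BET 762 (−0.32 to 0.98, adjusted p = 0.370). Each interval included no change as well as a rise of over 1.5-fold.

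**Figure D4:**
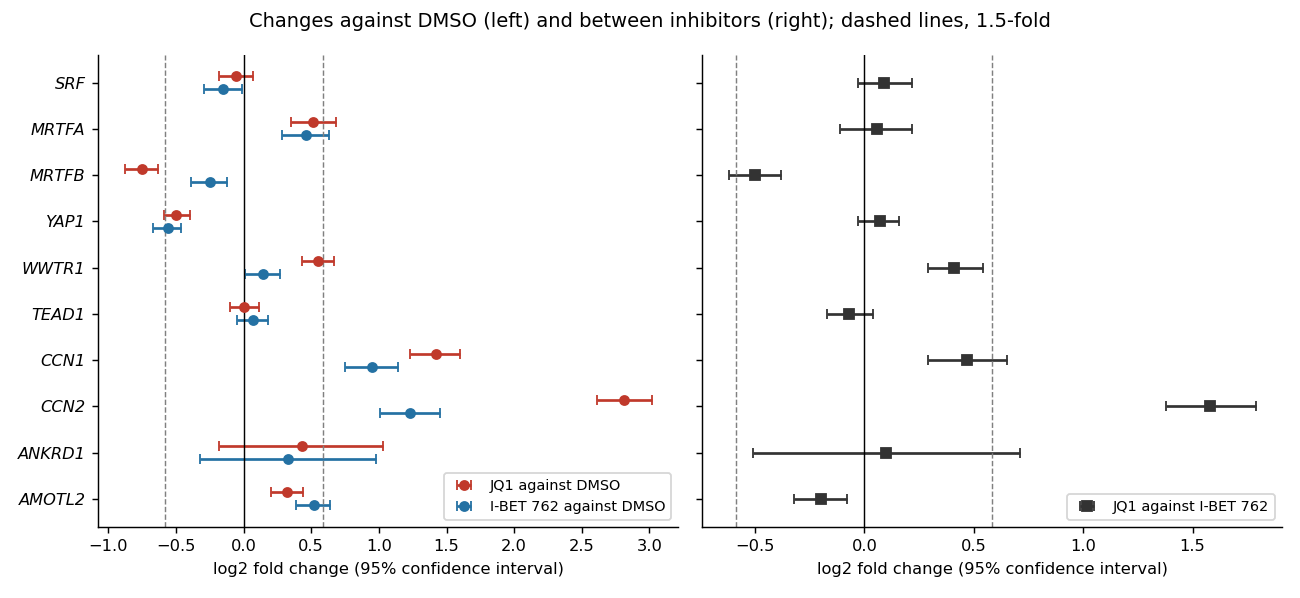
Log2 fold changes of the 10 genes with 95% confidence intervals, JQ1 and I-BET 762 against DMSO on the left and JQ1 against I-BET 762 on the right, with dashed lines at 1.5-fold. CCN2 stands at 2.81 and 1.23 against DMSO and at 1.58 between inhibitors, while the interval of ANKRD1 covers 0 throughout.

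At the same dose and time, JQ1 and I-BET 762 differed for 5 of the 10 genes. CCN2, CCN1 and WWTR1 were higher with JQ1 (13.3% of all tested genes were) and MRTFB and AMOTL2 were lower (14.0%). CCN2 was the only one of the 10 past both thresholds in this comparison (1.73% of all tested genes were higher and 3.59% lower past them), with 2.99-fold more in JQ1 (95% confidence interval 2.60 to 3.45, adjusted p = 5.74e-08). The log2 difference of JQ1 from I-BET 762 was 0.47 for CCN1 (0.29 to 0.65, adjusted p = 0.000941) and 0.41 for WWTR1 (0.29 to 0.54, adjusted p = 9.27e-05). For MRTFB it was −0.50 (−0.62 to −0.38, adjusted p = 2.21e-05), and −0.59 on the equal-totals scale, which passed both thresholds. For AMOTL2 it was −0.20 (−0.32 to −0.08, adjusted p = 0.0145). This call was lost without I-BET 762 replicate 21 (adjusted p = 0.0662) or replicate 23 (0.0593), and in a limma fit with no intensity trend (0.0525).
The other 5 genes did not pass the threshold between inhibitors. The intervals of the log2 difference were −0.03 to 0.22 for SRF, −0.11 to 0.22 for MRTFA, −0.03 to 0.16 for YAP1 and −0.17 to 0.04 for TEAD1, all inside 1.5-fold. The interval for ANKRD1, −0.51 to 0.71, reached beyond it.

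The order of levels per kb of exon differed by group. With DMSO it ran YAP1 (877), AMOTL2 (799), SRF (602), TEAD1 (600), WWTR1 (360), CCN1 (305), CCN2 (111), MRTFB (106), MRTFA (72.3) and ANKRD1 (9.01), where the libraries of the neighbours SRF and TEAD1 overlapped, as did those of CCN2 and MRTFB. With JQ1, AMOTL2 (998) led, followed by CCN1 (810) and CCN2 (781), which overlapped. YAP1 (622), TEAD1 (601), SRF (580) and WWTR1 (528) followed, each overlapping the next, and MRTFA (103) was above MRTFB (62.8). With I-BET 762, AMOTL2 (1144) and TEAD1 (628) led, and YAP1 (594), CCN1 (589) and SRF (543) followed with neighbours overlapping. Per kb, CCN2 ranked next to the coactivators MRTFB and MRTFA in DMSO and was above SRF, YAP1 and TEAD1 with JQ1. At 262 per kb it was below WWTR1 (395) with I-BET 762. In normalized counts, CCN2 (mean 1825) was below SRF (2455), YAP1 (3928) and TEAD1 (6430) with JQ1.

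Cytoskeletal targets of SRF and MRTF included large falls. Of 18 listed genes, 17 were tested (ACTG2 was too low), and with JQ1 10 fell and 1 rose past both thresholds, with a median log2 fold change of −0.84. With I-BET 762 10 fell and none rose past both thresholds, with a median of −0.60. For this and the lists that follow, the shares of all tested genes past both thresholds were 13.3% higher and 22.8% lower with JQ1 and 8.96% higher and 17.9% lower with I-BET 762, with medians of 0.01 and 0.00. In JQ1 against I-BET 762 the shares were 1.73% higher and 3.59% lower. TAGLN (transgelin, an actin-binding protein of smooth muscle) fell from 1599 ± 46.0 normalized counts with DMSO (SD, n = 3) to 126 ± 14.4 with JQ1 (n = 4) and 157 ± 11.7 with I-BET 762 (n = 3). Its log2 fold changes were −3.67 and −3.34 (adjusted p = 5.73e-14 and 1.72e-12). CNN1 (calponin) fell from 95.4 ± 13.2 to 7.06 ± 0.734 and 14.5 ± 6.19 (−3.58 and −2.70, adjusted p = 1.00e-08 and 1.11e-06). Transgelin and calponin both mark differentiated smooth muscle. MYL9, a myosin regulatory light chain, fell from 2532 ± 45.7 to 777 ± 67.1 and 1050 ± 59.9 (−1.71 and −1.27, adjusted p = 4.85e-12 and 9.07e-10). The gene that rose past both thresholds with JQ1 was ACTB, cytoplasmic beta-actin, named after its value was seen. Its log2 fold change was 0.75 with JQ1 (adjusted p = 1.90e-08) and 0.42 with I-BET 762 (adjusted p = 4.19e-05). On the equal-totals scale its JQ1 value was 0.56, short of 1.5-fold. ACTA2, TAGLN, CNN1 and CALD1 are also among the smooth muscle markers whose summed level is given above. CNN1 alone of the list was lower past both thresholds with JQ1 than with I-BET 762 (−0.88, adjusted p = 0.0283), and this did not hold without I-BET 762 replicate 21 (−0.57, adjusted p = 0.173) or without DMSO replicate 15 (adjusted p = 0.0501). It was also lost with limma-voom on recovered reads (adjusted p = 0.0797), with only the compared groups (0.101) and with no filter on low values (0.0687).

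The ternary complex factors and immediate early genes are the other class of SRF partners and targets. Of 12 listed genes 11 were tested. The other, MYOCD (myocardin), was too low, and it is a cofactor of the MRTF class that had been placed in this list. With JQ1 6 rose and none fell past both thresholds, with a median of 0.63. With I-BET 762 1 rose and 1 fell past both thresholds, with a median of 0.29. EGR1, a zinc finger factor, went from 425 ± 29.0 to 893 ± 81.4 with JQ1 and 597 ± 98.0 with I-BET 762 (log2 fold changes 1.07 and 0.48, adjusted p = 1.35e-07 and 0.00145). FOS, a subunit of AP-1, went from 1321 ± 71.3 to 2717 ± 146 and 1609 ± 365 (1.04 and 0.26, adjusted p = 1.66e-07 and 0.0483). The I-BET 762 value of FOS stood at the threshold: it was lost under most alternatives, with limma-voom at adjusted p = 0.0515, on the equal-totals scale at 0.17 (adjusted p = 0.241) and without I-BET 762 replicate 21 at 0.09 (adjusted p = 0.346). MCL1, an anti-apoptotic BCL2-family protein, went from 13928 ± 637 to 27610 ± 1173 and 20038 ± 171 (0.99 and 0.53, adjusted p = 4.65e-11 and 3.45e-07). The genes that follow were named after their values were seen. With I-BET 762 EGR3 rose (0.62, adjusted p = 0.0305) and FOSB fell (−0.85, adjusted p = 0.00100). The EGR3 call was lost without DMSO replicate 13 or 14 or I-BET 762 replicate 21 or 23, down to 0.48 (adjusted p = 0.132), with no filter (adjusted p = 0.0661), with a pseudocount of 5 (0.56, short of 1.5-fold) and on the equal-totals scale (0.52, adjusted p = 0.0734). Between inhibitors 5 genes of this list were past both thresholds and higher with JQ1, as were 1.73% of all tested genes. The 5 were JUNB (1.04, adjusted p = 0.000209), FOSB (0.86, adjusted p = 0.00214), FOS (0.78, adjusted p = 5.87e-05), EGR1 (0.59, adjusted p = 0.000674) and IER2 (0.59, adjusted p = 0.00112). Against DMSO, FOSB was at 0.01 with JQ1 (adjusted p = 0.971). JUNB was at −0.40 with I-BET 762 against DMSO (adjusted p = 0.0481, and 0.0682 with limma-voom). EGR1 and IER2 stood at the 1.5-fold limit and were each at 0.50 on the equal-totals scale. Without I-BET 762 replicate 22 they were at 0.45 and 0.50, and EGR1 also lost the call without JQ1 replicate 19 or 20 and IER2 without JQ1 replicate 17 or 19. Among the genes that rose past both thresholds with JQ1, EGR3 (0.76, adjusted p = 0.00504) and JUNB (0.63, adjusted p = 0.00192) were at 0.58 and 0.45 on the equal-totals scale, short of 1.5-fold.

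Among 20 Hippo kinases, adaptors and proteins that bind YAP1 or WWTR1, all tested, 4 rose and 2 fell past both thresholds with JQ1 (median 0.04). With I-BET 762 2 rose and none fell past both thresholds (median 0.12). TAOK3, a kinase that can activate STK3 and STK4, rose at 1.36 with JQ1 and 1.32 with I-BET 762 (adjusted p = 2.99e-11 and 2.64e-10). STK3 (MST2), the core kinase, rose at 0.97 and 0.83 (adjusted p = 6.03e-11 and 2.22e-09). SAV1, the scaffold of STK3 and STK4, and MOB1B, a cofactor of LATS kinases, were named after their values were seen. They rose with JQ1 at 0.77 and 0.73 (adjusted p = 8.17e-09 and 8.57e-10), each short of 1.5-fold on the equal-totals scale (0.58 and 0.55). With I-BET 762 both also rose, short of 1.5-fold, at 0.51 and 0.55 (adjusted p = 3.62e-06 and 1.09e-07). AMOT, the angiomotin paralogue of AMOTL2, fell at −0.93 with JQ1 and −0.54 with I-BET 762 (adjusted p = 7.64e-07 and 0.000541), opposite in sign to AMOTL2. Its I-BET 762 value passed 1.5-fold on the equal-totals scale (−0.64). WWC1 (KIBRA), also named after its value was seen, fell at −0.70 with JQ1 (adjusted p = 3.52e-07). With I-BET 762 it fell at −0.43 (adjusted p = 0.000178), short of 1.5-fold.

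Of 7 TEAD paralogues and VGLL cofactors, 4 were tested. VGLL2 and VGLL3 were too low and VGLL1 was not analysed here. TEAD2 and TEAD3, given above, fell past both thresholds with each inhibitor, none rose, and the median was −0.51 for both inhibitors. VGLL4, a competitor of YAP1 for TEAD that was named after its value was seen, fell at −0.15 with JQ1 and −0.31 with I-BET 762 (adjusted p = 0.0203 and 0.000265). The JQ1 value did not pass without DMSO replicate 13 (adjusted p = 0.0546) or 15 (0.0544).

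In a list of 18 other YAP1/TEAD targets, all tested, 1 rose and 7 fell past both thresholds with JQ1 (median −0.18). With I-BET 762 none rose and 6 fell past both thresholds (median −0.19). CRIM1 was the single gene of this list to move past both thresholds in the direction of CCN1 and CCN2. RBMS3, an RNA-binding protein, fell from 1293 ± 22.3 to 232 ± 11.4 with JQ1 and 405 ± 29.2 with I-BET 762 (−2.47 and −1.67, adjusted p = 1.76e-13 and 1.01e-10). FOXF2, a forkhead factor, fell at −2.26 and −2.70 (adjusted p = 4.52e-07 and 2.42e-07). TGFB2, a TGF-beta ligand, fell at −1.87 and −1.11 (adjusted p = 3.97e-12 and 8.91e-09). CRIM1, a transmembrane protein that binds BMPs, was named after its value was seen and rose at 0.60 with JQ1 (adjusted p = 4.25e-08), at the edge of 1.5-fold, and at 0.42 on the equal-totals scale. With I-BET 762 it rose at 0.46 (adjusted p = 3.54e-06), short of 1.5-fold. Between inhibitors, RBMS3 and TGFB2 were lower with JQ1 (−0.80 and −0.76, adjusted p = 2.61e-06 and 4.31e-06). NT5E, an ecto-nucleotidase likewise named after its value was seen, was higher with JQ1 (0.62, adjusted p = 1.17e-06), and 0.53 on the equal-totals scale.

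**Figure D5:**
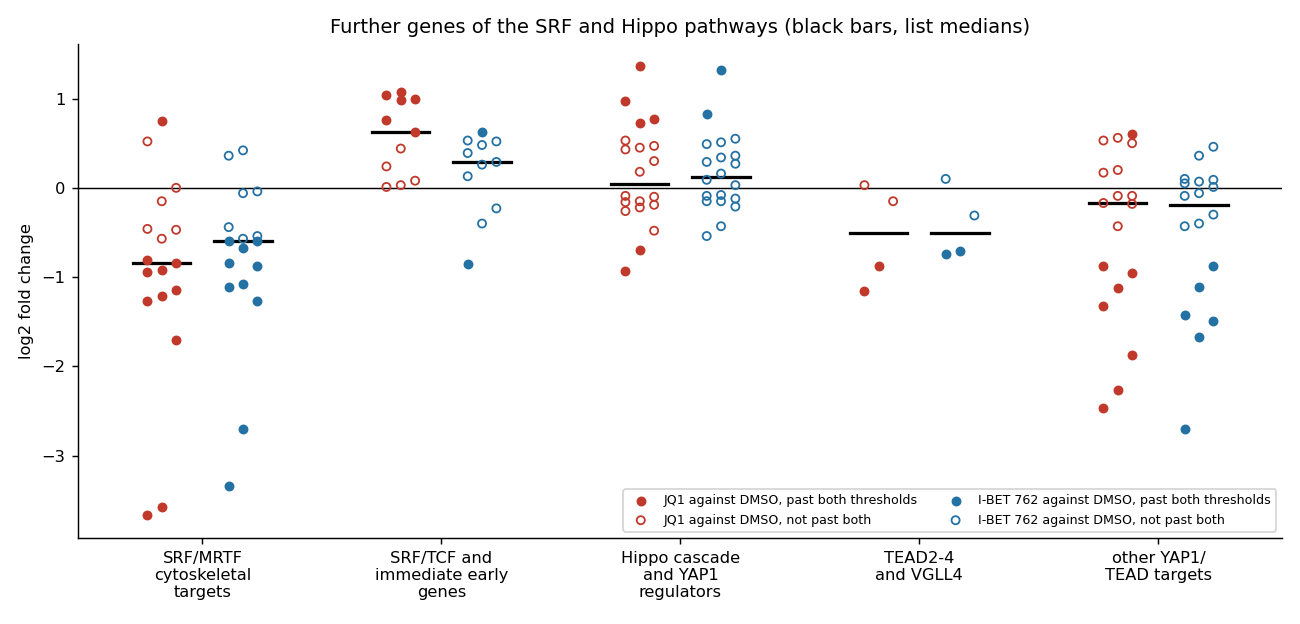
Log2 fold changes against DMSO of the tested genes of 5 further lists, JQ1 in red and I-BET 762 in blue, filled where past both thresholds, with list medians as black bars. The cytoskeletal SRF/MRTF targets have medians of −0.84 and −0.60, and the immediate early list 0.63 and 0.29.

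For each of the 10 genes the tested gene with the most similar profile was found, as the smallest root mean square (RMS) difference of log2 values centred over the 10 libraries. The differences were 0.03 for TEAD1 (with TGOLN2), 0.04 for SRF (COLGALT1) and YAP1 (IL1R1), 0.05 for MRTFA (PEAK1), WWTR1 (NUDT6) and AMOTL2 (MED17), and 0.06 for MRTFB (NHLRC2). They were larger for CCN1 (HTR7P1, 0.11), ANKRD1 (BCLAF1P2, 0.17) and CCN2 (CDKN1A, 0.22). No tested gene therefore came closer to the profile of CCN2 than 0.22 on the log2 scale. The measure is not scaled to how far a gene varies between libraries. Its size therefore does not rank how unusual a profile is.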

How the data were processed

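Gene expression of SK-UT-1 cells was measured by strand-specific total RNA sequencing. Per the submitters' processing notes and the study's methods, FastQC 0.73 and Trimmomatic were used for quality control and trimming, HISAT2 2.2.1 for alignment against hg38 and featureCounts 2.0.3 for counting, and outlier samples were excluded. The strand setting is not given in the sources used here. The authors normalized counts with DESeq2 and deposited log2 values, found to equal log2(normalized count + 1): between 99.57% and 99.64% of low values per library were whole multiples of 1 read within 0.1. Reads and scaling factors (0.9101 to 1.0989) were recovered from these steps, and intervals and floors from reads cover counting error only.

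Groups followed the treatment labels. limma 3.58.1 in R 4.3.3 was fitted to the deposited log2 values with an intensity trend, empirical Bayes, 3 groups in 1 fit, no covariates, and a filter of normalized count 10 in at least 3 libraries. Means and SDs are on normalized counts. Coordinates and exon lengths came from a GENCODE annotation on hg38. Tables and figures used Python 3.11.15, and the fit was tested on simulated data. Alternatives changed the pseudocount, filter, scaling, trend, samples, fold limit or test (limma-voom on the recovered reads).

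The 10 genes, the further lists and the rule for naming genes were chosen with earlier results of these data known, so no list is independent evidence. The rule named the 10 genes, in each list the genes past both thresholds with the 3 largest absolute log2 fold changes with JQ1, and 1 gene of most similar profile each. Genes named after their values were seen are marked as such. A further planned gene list is not reported here.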

Additional observations from a re-analysis of the deposited data

Results flagged for a closer look

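Groups of 4 libraries, which only JQ1 had, were examined for a library far from the others (Dixon's criterion) in 36 genes, and 3 were picked out, where chance picks about 1 in 20. For AMOTL2, JQ1 replicate 18 gave 5761 normalized counts beside 6665 to 6743 in the other JQ1 libraries. It remained above the highest DMSO library, at 5388. For MYL9, JQ1 replicate 17 gave 677 beside 807 to 813, all far below the lowest DMSO library, at 2496. For TEAD3, JQ1 replicate 20 gave 325 beside 233 to 241, below the lowest I-BET 762 library, at 338. The 3 values came from 3 different libraries.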

How the results depend on the processing

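No paired analysis was possible because the replicate numbers, 13 to 24, differ in every library. Of the log2 fold changes of the 10 genes, 554 values under alternatives kept direction and stayed on the same side of the combined limit (adjusted p and 1.5-fold), 3 newly passed it and 10 turned sign. Of the 554, 13 crossed adjusted p of 0.05 alone, for SRF, WWTR1 and AMOTL2. Of the values reported for other named genes 1101 kept, 35 lost and 4 gained the call and 9 turned sign. The number of the 10 genes past the thresholds moved only with the fold limit and 1 scaling. Without a fold limit it was 7 with JQ1, 6 with I-BET 762 and 5 between inhibitors, above 2-fold it was 2, 1 and 1, and with equal totals it was 4, 3 and 2, in the same order. Equal totals shifted the median of all genes to −0.18 with JQ1, −0.10 with I-BET 762 and −0.09 between inhibitors. All sign changes concerned values that did not pass a threshold, TEAD1 with JQ1 on equal totals excepted. With equal totals they were −0.03 for MRTFA and −0.02 for YAP1 between inhibitors, −0.18 (JQ1) and −0.03 (I-BET 762) for TEAD1, −0.15 and 0.00 for TEAD4, and −0.18 for FOSB with JQ1. With equal upper quartiles they were −0.01 for TEAD1 and 0.00 for FOSB with JQ1. Leaving out 1 library at a time gave, with JQ1, −0.04 to 0.03 for TEAD1, −0.16 to 0.14 for FOSB and −0.01 to 0.06 for TEAD4, and between inhibitors −0.07 to 0.26 for ANKRD1. In those 10 fits CCN2 stayed between 2.76 and 2.90 with JQ1, CCN1 between 1.32 and 1.5, and MRTFB between −0.78 and −0.72. JUNB, at 0.63, lost its JQ1 call without DMSO replicate 13 (0.58) or JQ1 replicate 17 or 19 (0.51 each), and CRIM1 without DMSO replicate 14 (0.58) or JQ1 replicate 20 (0.56). SRF with I-BET 762 passed adjusted p under 0.05 in 3 of 10 such fits, and WWTR1 in 2. Apart from equal totals, the cause was not tested. ANKRD1 could not be fitted with a mean of at least 100. ANKRD1 rested on 14 to 29 reads per library.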
